A study of Homo sapiens with 9 samples.

Results

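Metallothioneins and the genes of zinc handling that are usually read with them were followed in HMEC-1 cells, an immortalised human dermal microvascular endothelial line, grown in medium with 5.5 mM glucose. The cells had received AMI-1 or AMI-5 at 100 µM in DMSO, or DMSO alone (control), for 16 h, with 3 libraries of polyadenylated RNA per group and 9 in all. AMI-1, a urea that joins naphthol sulfonates, and AMI-5, a brominated xanthene dye, are known as inhibitors of arginine methyltransferases. The genes were chosen by symbol: the type 1 metallothionein genes MT1E, MT1F, MT1G, MT1L (classed as a gene or a pseudogene), MT1M and MT1X, the type 2 gene MT2A, the transcription factor gene MTF1 and the zinc exporter gene SLC30A1. Of these 9 names, 7 were in both deposited count tables, out of 18293 genes there, and all 7 were tested among 18284. MT1G and MT1M were not analysed here.

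Metallothioneins are small cysteine-rich proteins that bind zinc and copper in the cytosol and buffer their free levels. Zinc that enters the cell is sensed by MTF1, a zinc finger factor that moves to the nucleus and binds metal response elements in the promoters of metallothionein genes and of SLC30A1. SLC30A1 (ZnT1) sits in the plasma membrane and carries zinc out of the cell, so the storage and the export of the metal share a regulator. Metallothionein genes are also known to respond to glucocorticoids and to oxidative stress.

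The promoters of the measured genes are shown because the density of the metal response element separates them. Windows of 250 bases before the start site came from RefSeq (build GRCh38.p14, 4 of 7 genes matched: MT2A, MT1X, SLC30A1 and MTF1). They are written 5′ to 3′ on the strand of the gene, with matches to the core of the metal response element in capitals on whichever strand they lie. The core was searched as TGCGCNC and TGCACNC on both strands.
MT2A (chr16:56608334-56608583, + strand): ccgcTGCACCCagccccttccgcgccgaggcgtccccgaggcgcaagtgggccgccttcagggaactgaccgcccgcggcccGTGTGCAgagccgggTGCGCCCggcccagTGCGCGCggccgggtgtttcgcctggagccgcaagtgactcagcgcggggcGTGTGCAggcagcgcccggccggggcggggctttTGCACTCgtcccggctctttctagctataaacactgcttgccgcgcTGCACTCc
MT1X (chr16:56682220-56682469, + strand): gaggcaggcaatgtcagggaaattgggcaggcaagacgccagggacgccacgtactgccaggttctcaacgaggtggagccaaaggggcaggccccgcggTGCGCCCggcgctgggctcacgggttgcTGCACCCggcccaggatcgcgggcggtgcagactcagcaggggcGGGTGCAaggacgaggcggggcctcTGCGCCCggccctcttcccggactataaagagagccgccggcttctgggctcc
SLC30A1 (chr1:211579162-211579411, - strand): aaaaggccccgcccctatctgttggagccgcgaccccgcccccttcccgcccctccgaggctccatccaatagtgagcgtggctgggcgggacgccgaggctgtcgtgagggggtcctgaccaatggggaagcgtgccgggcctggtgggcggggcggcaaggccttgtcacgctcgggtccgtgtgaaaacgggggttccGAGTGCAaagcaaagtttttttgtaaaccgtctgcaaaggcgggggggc
The MT2A window held 7 cores, a number reached or passed by 0.0313% of 35116 promoter windows of the same length. MT1X held 4, reached or passed by 0.370% of windows. SLC30A1 held 1, from 49 to 43 bases before the start site on the opposite strand, and 24.8% of windows held at least 1. MTF1 held 0. The core of the antioxidant response element, searched as TGACNNNGC on both strands, was found once each in MT2A, MT1X and SLC30A1 and 0 times in MTF1, against 10.9% of all windows, and none of its matches overlapped a metal core. These are matches of letters, and binding was not measured.

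Total counts ran from 14454113 to 24693020 per library. Values are counts scaled to library size (CPM, with TMM factors). Libraries were paired by replicate number, and the column labels of a number share a prefix. All 9 libraries also resembled most a library of their own number. A library is named by its group and number, as control 1. The labels do not say that the libraries came from separate cultures. The p-values measure the spread left between these libraries after replicate number is fitted, and that spread may be technical. Of 12 endothelial markers 10 were measured, while PECAM1 and CLDN5 were not among the genes tested. Their summed level was 871 to 1245 CPM in control, 937 to 1186 CPM with AMI-1 and 724 to 982 CPM with AMI-5, where 1 was higher and 5 were lower by the test, beside 10.9% of all genes called in either direction. Against AMI-1 1 was higher and 4 were lower with AMI-5, beside 5.01% of all genes, and none passed with AMI-1 against control. Of 5 fibroblast markers 4 were measured, at 2743 to 4174, 2886 to 3888 and 2220 to 2936 CPM. Of 5 pericyte and smooth muscle markers all 5 were measured, at 204 to 436, 222 to 379 and 172 to 324 CPM. The fibroblast marker COL1A1 (-0.32, adjusted p = 0.0126) and the pericyte marker CSPG4 (-0.32, adjusted p = 0.0355, edgeR) were lower with AMI-5 than in control, and COL1A1 was also lower than with AMI-1 (-0.29, adjusted p = 0.0297, edgeR). COL1A1, at 2208 to 2924 CPM with AMI-5, made up most of the fibroblast sum. Of the fibroblast markers 3 had values above 0 with AMI-5 against control and 1 below (median 0.06). Of the pericyte and smooth muscle markers 1 was above 0 and 4 were below. Epithelial markers (3 of 6 measured, EPCAM and CDH1 not among them) ran from 201 to 412 CPM and leukocyte markers (1 of 5, CD14) from 1.57 to 2.91 CPM over all libraries. The part of these marker levels in the results was not tested, and in bulk RNA fewer cells of a type and less RNA per cell cannot be told apart.

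MT2A, the main metallothionein transcript among the 7 genes, stood far above the others of the 7. In control its level per kilobase of transcript was 496 ± 151 CPM per kb (SD, n = 3), followed by MT1E at 76.0 ± 7.84 and MT1X at 16.1 ± 2.22 CPM per kb. SLC30A1 was at 10.8 ± 4.28 CPM per kb. MT1F at 2.22 ± 0.572, MTF1 at 2.22 ± 0.130 and MT1L at 1.92 ± 0.956 CPM per kb closed the order, and these 3 did not differ beyond their spread. The ranges of MT1X and SLC30A1 per kilobase also overlapped. MT2A supplied 77.0% to 87.7% of the summed CPM of the 5 metallothionein genes among them in a library. That sum leaves out the MT2A pseudogene MT2P1 (described below), which was at 70.8 ± 34.6 CPM (SD, n = 3) in control. MT1F rested on 18 to 46 reads and MT1L on 6 to 20 reads per library, so that only large changes could be seen in them.

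**Figure D1:**
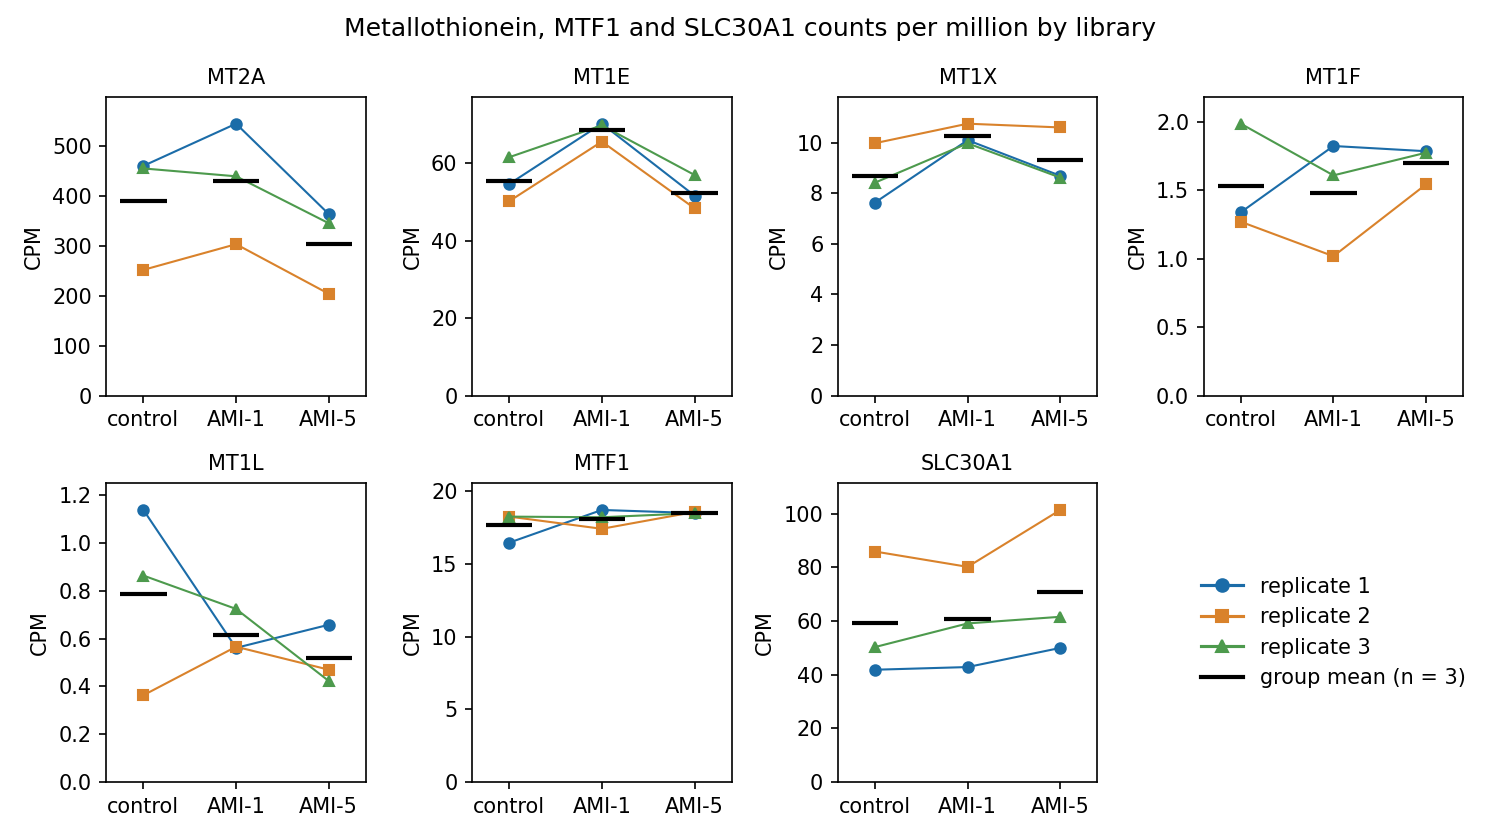
CPM (linear axes from 0) of the 7 genes in each of the 9 libraries; points of one replicate number are joined and black bars are group means of 3 libraries. MT2A was lowest and SLC30A1 highest in replicate 2 of every group, and the MT1E libraries of AMI-1, from 65.5 to 70.1 CPM, lay above those of control and AMI-5.

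Replicate number set much of the level of MT2A and SLC30A1. For MT2A it accounted for 74.5% of the sum of squares of log2 CPM between libraries and treatment for 23.5%. For SLC30A1 the shares were 91.1% and 6.93%. MT1E behaved otherwise, with 19.2% for replicate number and 76.7% for treatment. MT2A was lowest in replicate 2 of each group, the replicate in which SLC30A1 was highest. The GC content of the longest transcript was 53.9% for MT2A and 38.0% for SLC30A1.

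AMI-1 was compared with control first. MT1E rose 1.24-fold and was the only one of the 7 genes to pass the test, where 0.421% of all genes tested did. None fell, and 0.241% of all genes passed as higher. The median log2 fold change of the 7 genes was 0.06, beside -0.0019 over all genes. Changes were tested with edgeR's quasi-likelihood test on all genes, with replicate number as a block and Benjamini-Hochberg adjusted p-values at a threshold of 0.05.

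MT1E, which encodes a type 1 metallothionein, was at 54.6, 50.1 and 61.5 CPM in control replicates 1, 2 and 3 and at 70.1, 65.5 and 69.7 CPM with AMI-1. Every AMI-1 library lay above every control library, as was so for 1.94% of genes. The log2 fold change was 0.31 ± 0.06 (SE; 95% interval 0.17 to 0.44, adjusted p = 0.0395, edgeR), with pairs at 0.36, 0.39 and 0.18. The call lay near the threshold. It ended when any of control 1, control 2, control 3, AMI-1 1, AMI-5 1 and AMI-5 2 was left out (adjusted p 0.0724 to 0.364), in a fit of the AMI-1 and control libraries alone (0.0716) and in a fit to all genes of the AMI-1 table (0.0546). Without the replicate block edgeR called 0 genes here, with AMI-5 and between the compounds. In these fits 188, 494 and 483 genes, or 1.03%, 2.7% and 2.64% of those tested, had an unadjusted p under 0.05. These shares are smaller than a cut-off of 0.05 passes where nothing differs.

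MT2A did not pass the test with AMI-1. Its levels were 460.8, 252 and 456 CPM in control and 545, 304 and 439.8 CPM with AMI-1. Replicates 1 and 2 were higher with the compound and replicate 3 was slightly lower, with pairs at 0.24, 0.27 and -0.05 and a log2 fold change of 0.15 ± 0.06 (95% interval 0.03 to 0.28, adjusted p = 0.383, edgeR). The outcome changed when AMI-1 replicate 3 was left out, where the value was 0.25 (adjusted p = 0.00729, edgeR). It also changed with all libraries kept and an offset for GC content, where the value was 0.17 (adjusted p = 0.0125, edgeR).

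MT1X, another type 1 gene, was at 7.63, 9.98 and 8.42 CPM in control and at 10.1, 10.7 and 9.97 CPM with AMI-1. It was higher in 3 of 3 pairs, as were 14.4% of all genes, and the groups overlapped because control 2, at 9.98 CPM, lay just above AMI-1 3 (0.24 ± 0.10, adjusted p = 0.433, edgeR). MT1F was at 1.53 ± 0.395 CPM (SD, n = 3) in control and 1.48 ± 0.417 CPM with AMI-1. MT1L was at 0.788 ± 0.393 and 0.617 ± 0.0927 CPM. Neither passed the test (adjusted p = 0.920 and 0.815), and their intervals, -0.57 to 0.38 and -0.999 to 0.41 in log2 fold change, were wide.

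The regulator and the exporter did not pass the test with AMI-1 either. MTF1 was at 16.5, 18.3 and 18.3 CPM in control and 18.7, 17.4 and 18.2 CPM with AMI-1 (0.03 ± 0.08, adjusted p = 0.929, edgeR). SLC30A1 was at 41.8, 85.9 and 50.3 CPM in control and 42.8, 80.2 and 59.1 CPM with AMI-1 (0.06 ± 0.07, adjusted p = 0.825, edgeR). The groups overlapped for both genes, with control 1 below every AMI-1 library for MTF1. The 95% intervals, -0.15 to 0.21 for MTF1 and -0.09 to 0.20 for SLC30A1, give the range of change that these libraries allow.

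The second compound, AMI-5, moved many more genes than the first. MT2A fell to 0.785 of its control level and SLC30A1 rose 1.20-fold. These 2 of 7 genes passed the test, where 10.9% of all genes did, 3.42% as higher and 7.45% as lower. The median log2 fold change was 0.07 over the 7 genes and -0.0050 over all genes. Over the 5 metallothionein genes alone the median was -0.08, with 2 values above 0 and 3 below.

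MT2A was at 460.8, 252 and 456 CPM in control and at 364, 204 and 346 CPM with AMI-5. It was lower in 3 of 3 pairs (-0.34, -0.30 and -0.40), as were 28.8% of genes, but the groups overlapped because replicate 2 was low in both. The log2 fold change was -0.35 ± 0.06 (95% interval -0.48 to -0.22, adjusted p = 0.00205, edgeR). Without control replicate 3 it was -0.28 (adjusted p = 0.0599) and without AMI-5 replicate 1 it was -0.33 (adjusted p = 0.0546).

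SLC30A1, which exports zinc across the plasma membrane, was at 41.8, 85.9 and 50.3 CPM in control and at 49.98, 101.4 and 61.6 CPM with AMI-5. All 3 pairs were higher, by 0.26, 0.24 and 0.29, as were those of 24.8% of genes. The groups overlapped. The log2 fold change was 0.26 ± 0.07 (95% interval 0.12 to 0.41, adjusted p = 0.0218, edgeR). With an offset for GC content it was 0.14 (adjusted p = 0.0376), and the call ended when control 1, control 3, AMI-5 1 or AMI-5 2 was left out (adjusted p 0.0988 to 0.230).

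The remaining genes did not pass the test with AMI-5. MT1E was at 51.6, 48.3 and 56.9 CPM, slightly below control in each pair (-0.08 ± 0.06, 95% interval -0.22 to 0.05, adjusted p = 0.423, edgeR). MT1X was at 8.69, 10.6 and 8.62 CPM, slightly above control in each pair (0.09 ± 0.10, adjusted p = 0.595, edgeR). MTF1 was at 18.5, 18.6 and 18.5 CPM, above all 3 control libraries by a small step (0.07 ± 0.08, adjusted p = 0.650, edgeR), a separation seen in 3.98% of genes. MT1F was at 1.70 ± 0.137 CPM (SD, n = 3; adjusted p = 0.789, edgeR). MT1L was at 0.517 ± 0.124 CPM, with the widest interval of the 7 (-1.36 to 0.09, adjusted p = 0.248, edgeR). The transcript of the zinc sensor was thus measured to within an interval of -0.11 to 0.24 in log2 fold change.

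**Figure D2:**
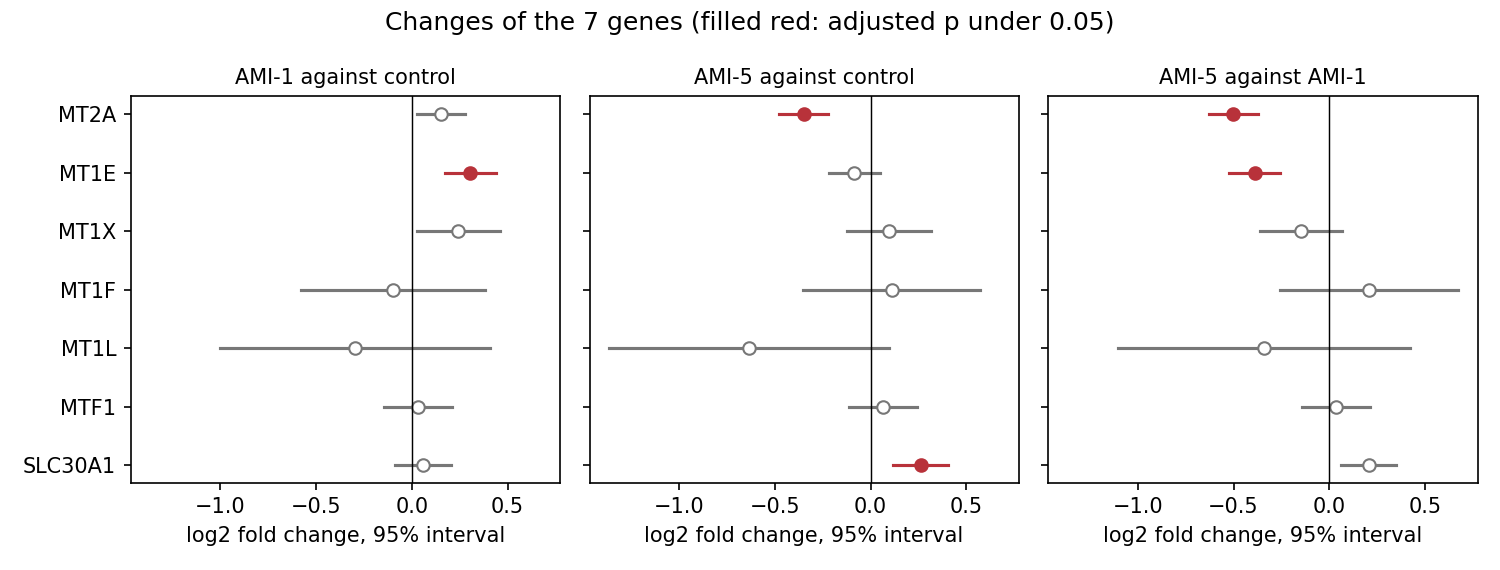
Log2 fold changes with 95% intervals of the 7 genes (rows) in the 3 comparisons (panels), from the fit with the replicate block; filled red points have an adjusted p under 0.05. MT1E passed the threshold with AMI-1, MT2A and SLC30A1 with AMI-5, and MT2A and MT1E between the compounds.

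AMI-5 against AMI-1 compared the compounds directly, at the same dose and time. MT2A was lower with AMI-5, at 0.706 of its AMI-1 level, and MT1E at 0.764. These were 2 of 7 genes, both lower, where 5.01% of all genes passed the test and 3.40% passed it as lower. Of the 5 metallothionein genes 4 had a negative value, with a median of -0.34 beside -0.0063 over all genes. That median is the value of MT1L, which rested on 6 to 20 reads per library and did not pass the test. This comparison shares its libraries with both others, so its calls are no independent repeat of theirs.

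MT2A was lower with AMI-5 in each pair, at -0.58, -0.57 and -0.35 (log2 fold change -0.50 ± 0.06, 95% interval -0.63 to -0.37, adjusted p = 8.31e-05, edgeR). The AMI-5 and AMI-1 libraries still overlapped, since AMI-1 replicate 2 at 304 CPM lay below AMI-5 replicates 1 and 3. MT1E did not overlap: its highest AMI-5 library was at 56.9 CPM and its lowest AMI-1 library at 65.5 CPM, a separation in this direction seen in 3.28% of genes. Its log2 fold change was -0.39 ± 0.06 (95% interval -0.52 to -0.26, adjusted p = 0.00146, edgeR). Both calls held in 9 of 9 fits that left out 1 library.

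SLC30A1 was higher with AMI-5 than with AMI-1 in 3 of 3 pairs (0.22, 0.34 and 0.06), as were 16.7% of genes. It did not pass the test (0.20 ± 0.07, 95% interval 0.06 to 0.35, adjusted p = 0.0955, edgeR). Without AMI-1 replicate 3, the library of the smallest pair, it did (0.30, adjusted p = 0.000918), and it did with an offset for GC content (0.15, adjusted p = 0.0249). MT2A, MT1E and MT1X were each lower in 3 of 3 pairs, as were 18.5% of genes. MT1X at -0.15 ± 0.10 (adjusted p = 0.448), MT1F at 0.21 ± 0.22 (adjusted p = 0.663), MT1L at -0.34 ± 0.36 (adjusted p = 0.659) and MTF1 at 0.03 ± 0.08 (adjusted p = 0.871) did not pass. The compounds were therefore not shown to differ in these genes, nor to act alike.

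Metallothionein genes resemble each other, so reads may have been divided between them. The longest identical stretch of transcript was 63 bases between MT2A and MT1X and 32 bases between MT2A and MT1E. The closest relative of MT2A in the tables was a processed pseudogene, labelled MT1P2 there and named MT2P1 by its gene identifier (ENSG00000162840). It matched the MT2A transcript at 97.3% of 183 aligned bases, with a longest identical stretch of 68, and its counts were 11.8% to 20.2% of those of MT2A.

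The MT2A pseudogene largely followed MT2A over the 9 libraries, but it fell further with AMI-5. Its counts were 19.5%, 12.2% and 20.2% of those of MT2A in control replicates 1, 2 and 3. With AMI-5 they were 15.2%, 11.8% and 17.5%. MT2P1 was at 89.7, 30.8 and 91.8 CPM in control, 102.1, 38.6 and 85.7 CPM with AMI-1 and 55.2, 24.1 and 60.6 CPM with AMI-5. It was low in replicate 2 of each group, as MT2A was. Its log2 fold change was 0.12 ± 0.08 with AMI-1 (adjusted p = 0.641), -0.57 ± 0.08 with AMI-5 (adjusted p = 0.000615) and -0.69 ± 0.08 between the compounds (adjusted p = 6.4e-05, edgeR). With its counts added to MT2A, the change of MT2A was 0.15 with AMI-1, -0.38 with AMI-5 (adjusted p = 0.00139) and -0.53 between the compounds (adjusted p = 5.5e-05).

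**Figure D3:**
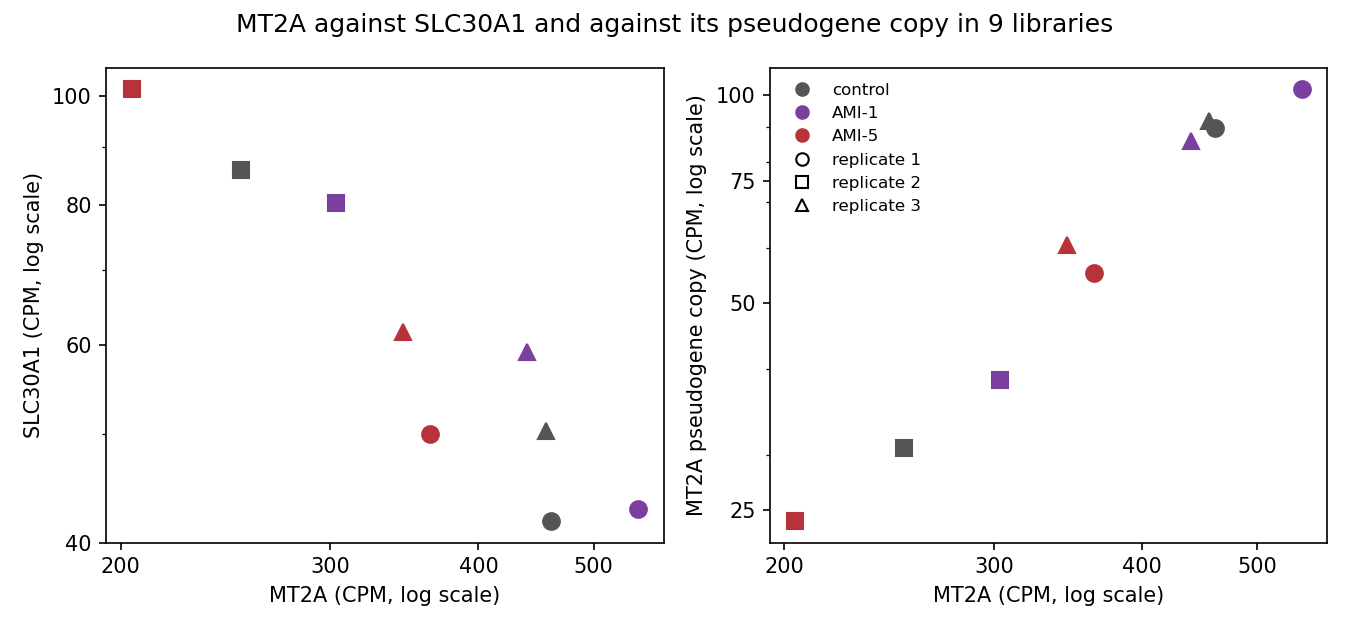
CPM of SLC30A1 (left) and of the MT2A pseudogene copy MT2P1 (right) against CPM of MT2A, both on log axes, 1 point per library; colour gives the group and shape the replicate number. SLC30A1 is high where MT2A is low, with replicate 2 at one end, and the copy rises with MT2A.

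Over the 9 libraries, log2 CPM of MT2A and SLC30A1 had a Pearson r of -0.94 as measured and -0.86 after the mean of each replicate number was removed. MT2A and MT1E had 0.69 and 0.86, and MT2A and its pseudogene 0.99 and 0.98. These values describe libraries that share replicate number and treatment, and for the pseudogene also sequence. MT1X did not follow MT2A in this way, with -0.48 as measured and 0.32 with replicate means removed. MTF1 and MT2A had -0.18 and -0.31.

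Of 12761 genes with a mean of at least 5 CPM, the 5 whose pattern was most like that of MT2A, with replicate means removed, were HEXIM1 (r = 0.997), BTN2A1 (0.993), H1F0 (0.990), RNPEP (0.988) and SEPT9 (0.987). HEXIM1, which encodes an inhibitor of the elongation factor P-TEFb, was at 81.6, 59.6 and 81.0 CPM in control and 64.3, 47.4 and 58.1 CPM with AMI-5 (-0.39 ± 0.07, adjusted p = 0.00254, edgeR). The linker histone gene H1F0 changed by -0.20 ± 0.05 (adjusted p = 0.0230). The 5 most like SLC30A1 were GFPT1 (0.997), NHLRC3 (0.993), MEIS2 (0.992), VPS41 (0.992) and ATAD1 (0.991). GFPT1, which encodes the first enzyme of hexosamine synthesis, was at 92.2, 134.8 and 97.7 CPM in control and 106.3, 155.2 and 115.7 CPM with AMI-5 (0.22 ± 0.06, adjusted p = 0.0256, edgeR). Both lists were picked from these same 9 libraries by likeness to genes called with AMI-5, so the tests of their genes are no independent support. BTN2A1, MEIS2 and VPS41 did not pass with AMI-5 (adjusted p = 0.285, 0.105 and 0.0692, edgeR), while RNPEP, SEPT9, NHLRC3 and ATAD1 passed. With levels as measured only RNPEP and ATAD1 were still among the 5 nearest.

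Other metallothionein names gave few values. Of 13 in the list, 3 were tested, and 0 passed with AMI-1. MT1P3 (ENSG00000229230), a pseudogene, fell with AMI-5 (-0.47 ± 0.13, adjusted p = 0.0310) and was lower with AMI-5 than with AMI-1 (-0.56 ± 0.13, adjusted p = 0.0182, edgeR). Its level was 3.28, 4.23 and 13.2 CPM in control and 2.91, 3.42 and 8.49 CPM with AMI-5, and the first call ended with an offset for GC content (-0.34, adjusted p = 0.0961) and in 7 of 9 fits that left out 1 library (each control and AMI-5 library and AMI-1 1, highest adjusted p 0.444). The second ended when AMI-1 1, AMI-5 1 or AMI-5 3 was left out (highest 0.177) and with DESeq2 (adjusted p = 0.0799). The MT1P3 transcript shares a stretch of 79 bases with MT1E. MT1XP1, a processed copy of MT1X, was at 2.60 ± 1.75, 3.27 ± 1.76 and 2.38 ± 1.06 CPM in control, AMI-1 and AMI-5 (SD, n = 3) and passed no test. MT1A stayed between 0.523 and 1.07 CPM and passed none.

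The other genes of the zinc exporter list, most of which encode SLC30 transporters that move zinc out of the cytosol, did not pass the test (SLC30A9 is a mitochondrial zinc transporter). Of 10 in the list 6 were measured. All 6 had values above 0 with AMI-1 (median 0.08) and with AMI-5 (median 0.17), comparisons that share the control libraries. The medians over all genes were -0.0019 and -0.0050. No values with an offset for GC content are given for these 6. With that offset SLC30A1 was at 0.14 with AMI-5, in place of 0.26. SLC30A7, a Golgi transporter, was nearest to the threshold with AMI-5, at 33.1, 72.0 and 42.9 CPM in control and 40.4, 76.5 and 53.4 CPM with AMI-5 (0.22 ± 0.08, adjusted p = 0.0637, edgeR). SLC30A4 was nearest with AMI-1 (0.26 ± 0.09, adjusted p = 0.268, edgeR). Like SLC30A1, 5 of the 6 were highest in replicate 2 of each group, SLC30A3 being the exception.

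**Figure D4:**
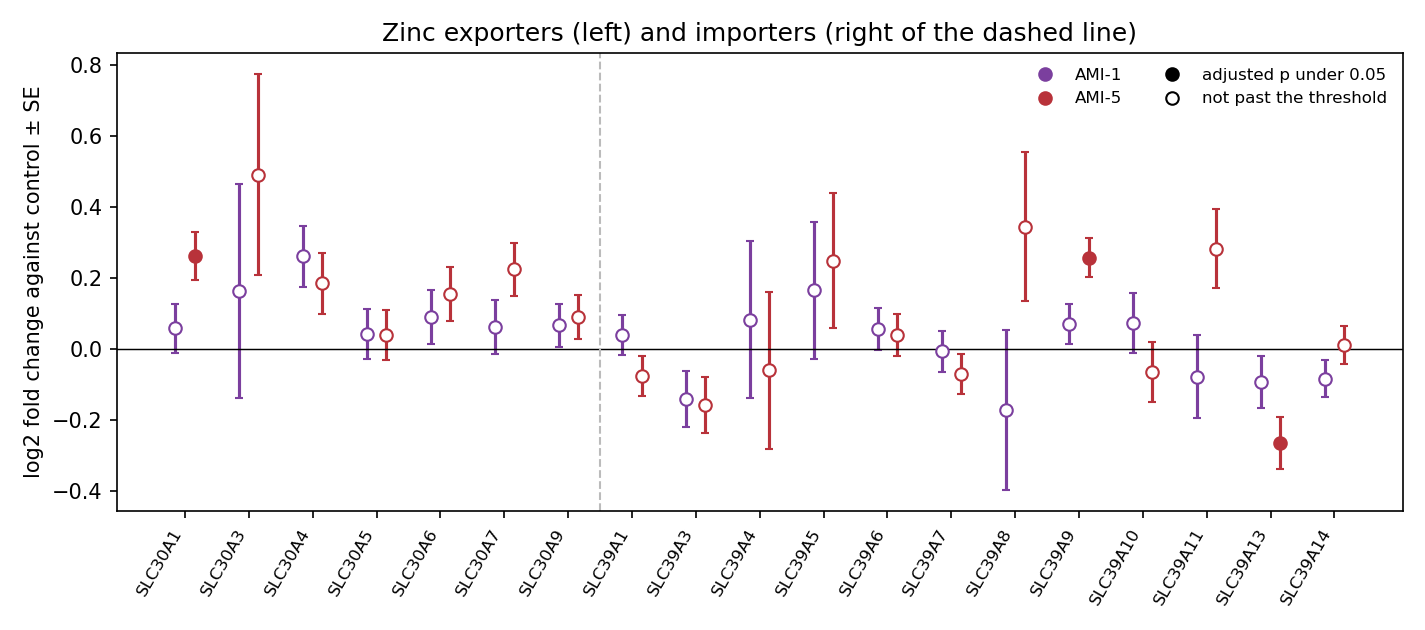
Log2 fold change against control ± SE of 7 zinc exporter genes (SLC30, left of the dashed line) and 12 zinc importer genes (SLC39, right) with AMI-1 and AMI-5; filled points have an adjusted p under 0.05. The filled points are SLC30A1, SLC39A9 and SLC39A13, all with AMI-5.

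Importers of the SLC39 family, which bring zinc into the cytosol, moved in both directions. Of 14 in the list 12 were measured, with a median log2 fold change of 0.02 with AMI-1 and -0.03 with AMI-5, and with AMI-1 none passed the test. In the AMI-5 comparison 1 rose and 1 fell, beside 10.9% of all genes called in either direction. With AMI-5 SLC39A9 rose from 113 ± 9.05 to 135 ± 10.3 CPM (SD, n = 3; 0.26 ± 0.06, adjusted p = 0.00888, edgeR), higher in 3 of 3 pairs. SLC39A13, a transporter of the Golgi and vesicles, fell from 93.1 ± 28.0 to 77.2 ± 22.7 CPM (-0.27 ± 0.07, adjusted p = 0.0278, edgeR), lower in 3 of 3 pairs. Among all genes 24.8% were higher and 28.8% lower in 3 of 3 pairs. An offset for GC content ended the call of SLC39A13 (-0.08, adjusted p = 0.202). Left-out libraries ended that of SLC39A9 in 4 of 9 fits (control 1, control 3, AMI-5 1 and AMI-5 2, highest adjusted p 0.0962) and that of SLC39A13 in 5 of 9 (the same libraries and AMI-1 1, highest 0.229).

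Of 6 genes described as MTF1-dependent in mouse, all were measured, with medians of -0.01 with AMI-1, -0.07 with AMI-5 and -0.08 between the compounds. The list does not record in which direction MTF1 acts on each gene, so these medians do not measure the activity of MTF1. SLC39A10 is in this list and also among the importers. With AMI-1 1 rose and 1 fell, beside 0.421% of all genes called. With AMI-5 1 fell, beside 7.45% of all genes called lower. Between the compounds 2 were lower with AMI-5, beside 3.4% of all genes. NDRG1, a gene also induced by low oxygen, was at 125, 86.4 and 119.8 CPM in control and 167, 122 and 147 CPM with AMI-1 (0.40 ± 0.06, adjusted p = 0.00250, edgeR), and was not called without AMI-1 replicate 1 (0.38, adjusted p = 0.0952). SEPW1, which encodes selenoprotein W, fell with AMI-1 (-0.43 ± 0.07, adjusted p = 0.00919) and with AMI-5 (-0.91 ± 0.08, adjusted p = 2.59e-06, edgeR). Its levels were 64.9, 37.0 and 65.0 CPM in control, 48.5, 31.4 and 43.3 CPM with AMI-1 and 36.1, 19.5 and 33.3 CPM with AMI-5. The AMI-1 call of SEPW1 ended when control 1, control 3 or AMI-1 1 was left out (highest adjusted p 0.252). Between the compounds NDRG1 (-0.48, adjusted p = 0.000108) and SEPW1 (-0.48, adjusted p = 0.00127, edgeR) were both lower with AMI-5.

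Glucocorticoid response genes and genes of proteotoxic and metal stress were read as other inputs to metallothionein genes. Over all genes, 0.421% were called with AMI-1 and 10.9% with AMI-5. Of 9 glucocorticoid response genes 1 passed with AMI-1: KLF9 rose from 43.3, 81.9 and 42.7 CPM to 59.1, 103.7 and 63.9 CPM (0.46 ± 0.07, adjusted p = 0.00521, edgeR), and its call ended when control 3 or AMI-1 1 was left out (highest adjusted p 0.114). FKBP5 and TSC22D3, which are also induced through the glucocorticoid receptor, did not pass (-0.05 and 0.24, adjusted p = 0.792 and 0.222, edgeR). With AMI-5 none of the 9 passed, and the medians were 0.04 with AMI-1 and -0.06 with AMI-5. Of 7 genes of proteotoxic and metal stress 0 passed with AMI-1, and 2 rose and 1 fell with AMI-5 (medians -0.08 and 0.04). HMOX1, which encodes haem oxygenase 1 and also counts in the iron list, was at 18.1, 15.8 and 16.5 CPM in control and 28.3, 56.6 and 29.9 CPM with AMI-5 (1.13 ± 0.16, adjusted p = 0.000740, edgeR). Its AMI-5 libraries lay above all controls, as was so for 3.98% of genes, and were highest in replicate 2, where MT2A was lowest.

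The heat shock genes moved apart with AMI-5. HSPA1B rose (0.41 ± 0.12, adjusted p = 0.0315) and HSPB1 fell (-0.30 ± 0.09, adjusted p = 0.0381, edgeR). Both calls ended in 5 of 9 fits that left out 1 library, HSPA1B in those lacking control 1, control 2, control 3, AMI-5 1 or AMI-5 2 (adjusted p 0.0503 to 0.279) and HSPB1 in those lacking control 1, control 3, AMI-1 1, AMI-5 1 or AMI-5 2 (0.0670 to 0.255). The value of HSPA1B was 0.27 without control 2 and 0.18 without AMI-5 2. DESeq2 called neither (adjusted p = 0.163 and 0.161), and an offset for GC content gave HSPB1 -0.09 (adjusted p = 0.183). HSPA1B has a near-identical copy, HSPA1A, with which it may share reads.

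Copper and iron handling were read beside zinc because metallothioneins bind copper and because the metals share transporters. The shares of all genes called were again 0.421% with AMI-1 and 10.9% with AMI-5. Of 12 copper genes 0 passed with AMI-1 and 1 with AMI-5 (medians 0.04 and 0.02). ATP7B, a copper-exporting ATPase, was at 6.90, 5.14 and 5.74 CPM in control and 7.70, 8.25 and 8.28 CPM with AMI-5 (0.45 ± 0.12, adjusted p = 0.0243, edgeR). It was at 8.34, 8.49 and 8.04 CPM with AMI-1 (0.49 ± 0.12, adjusted p = 0.105, edgeR). Both groups lay above control, as did 1.94% of genes with AMI-1 and 3.98% with AMI-5. The AMI-5 call of ATP7B ended in 5 of 9 fits that left out 1 library (control 2, control 3 and each AMI-5 library, highest adjusted p 0.172). Of 12 iron genes 1 rose with AMI-1 and 2 with AMI-5, and 0 fell (medians 0.05 and 0.03). TFRC, the transferrin receptor gene, rose with AMI-1 (0.37 ± 0.05, adjusted p = 0.00250, edgeR), a call that ended when control 1 or control 3 was left out (highest adjusted p 0.0590). FTL, the ferritin light chain gene, rose with AMI-5 beside HMOX1 (0.25 ± 0.06, adjusted p = 0.0150, edgeR), a call that ended when control 1, AMI-5 1 or AMI-5 2 was left out (highest adjusted p 0.131).

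Between the compounds, 0 of 6 other zinc exporters, 0 of 12 importers and 0 of 12 copper genes passed the test, with medians of 0.04, -0.02 and -0.04. Of all genes 5.01% passed. HMOX1 was higher with AMI-5 than with AMI-1 (1.25 ± 0.16, adjusted p = 0.000193, edgeR) and held that call in 9 of 9 fits that left out 1 library. KLF9 was lower with AMI-5 (-0.37 ± 0.07, adjusted p = 0.00599), except when AMI-1 1 or AMI-5 1 was left out (highest adjusted p 0.103). TFRC was lower too (-0.26 ± 0.05, adjusted p = 0.00832), except when AMI-1 1 or AMI-5 2 was left out (highest 0.101). FBXL5, which encodes an iron-sensing ubiquitin ligase subunit, was lower (-0.24, adjusted p = 0.0398, edgeR) but was called in 3 of 9 fits that left out 1 library (those lacking control 2, AMI-1 2 or AMI-1 3). HSPB1 was lower (-0.34 ± 0.09, adjusted p = 0.0354, edgeR) in 2 of 3 pairs and was called in 4 of 9 such fits (those lacking control 2, control 3, AMI-1 3 or AMI-5 3). Its value ran from -0.50 without AMI-1 3 to -0.20 without AMI-1 2 and was -0.17 with an offset for GC content, and DESeq2 did not call it (adjusted p = 0.153).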

How the data were processed

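RNA of HMEC-1 cells was compared between control, AMI-1 and AMI-5, with 3 libraries each. The authors deposited raw read counts per gene in 1 table per compound, with 18385 and 18598 genes, a smallest mean count of 10 in each, and 0 control values that differed. The submitters' processing notes name BWA, bedtools and hg19; the gene annotation, the strand setting and the treatment of reads that match several genes were not given in the sources used here. Per the labels' protocols, RNA was enriched for poly-A.

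From the counts, genes in both tables were fitted together with edgeR 4.0.16 (R 4.3.3; TMM, filterByExpr by group, 9 genes removed, quasi-likelihood test, Benjamini-Hochberg over 18284 genes, threshold 0.05). The fit held replicate number as a block. The labels do not say what a number marks. In their deviations from group means, 9 same-number pairs correlated at 0.431 to 0.871 and pairs with different numbers at -0.804 to 0.204. Deviations within a group sum to 0, which pushes pairs with different numbers below 0. Their low values are therefore no separate support for the block. The biological coefficient of variation was 5.64% with the block and 23.7% without. Log2 CPM used a prior count of 2, levels per kilobase the longest coding transcript of GENCODE 29, and GC offsets a lowess curve (span 0.3), with GC content known for 95.7% of genes. GC content was that of the longest transcript of any type, which need not be the one counted. It had 903 bases for MT2A and 1727 for MT1X, where the longest coding transcripts had 786 and 538. Alternatives included DESeq2 1.42.0. On data simulated from the blocked fit, 82.1% of 1.5-fold changes were recovered for AMI-1 and 88.1% for AMI-5, with 18 and 9 unchanged genes called among 18284. Fitted without the block, 1.49% and 2.99% of 1.5-fold changes were recovered. The simulation takes the block as given, so it cannot show whether the block is right. The changes called in MT1E, MT2A and SLC30A1 were smaller than 1.5-fold. No change of that size was simulated, so its recovery is not known.

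Named genes are the 7 genes, up to 3 genes with the lowest adjusted p per list and comparison, and the 5 most like MT2A and SLC30A1; MT2P1, FKBP5, COL1A1 and CSPG4 were chosen after their values were seen. The genes and lists were chosen with earlier results of these data known.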

Additional observations from a re-analysis of the deposited data

How the results depend on the processing

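Without the replicate block 0 genes and 0 of the 7 genes were called in each of the 3 comparisons. With the block, the number of the 7 called with AMI-1 was 0 in a fit of only the 2 groups compared and 0 with all genes of one table, while those fits called 4286 and 4328 genes with AMI-5 in place of 1988. An offset for GC content called 570 genes with AMI-1 (225 higher, 345 lower) in place of 77 (44 and 33), 2 of the 7, and 2037 genes between the compounds (866 higher, 1171 lower) in place of 916 (294 and 622). With offsets for GC content and transcript length together, chosen after seeing the data, these were 624, 2 and 2049. Leaving out 1 library gave 14 to 308 genes with AMI-1, 172 to 4232 with AMI-5 and 195 to 3408 between the compounds, and 0 to 2, 0 to 2 and 2 to 3 of the 7 genes. Of the 10 genes named for likeness, 2 were among the nearest as measured.

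For the 7 genes, 370 alternative fold changes were computed: 336 kept direction and side of the threshold, 19 lost a call, 6 gained one and 9 changed sign. Most of the 370 belong to values that were not called and had no call to lose. The call was lost in 9 of 18 alternatives for MT1E with AMI-1. With AMI-5 it was lost in 3 of 19 for MT2A and 5 of 18 for SLC30A1. Between the compounds it was lost in 1 of 18 for MT2A and 1 of 17 for MT1E. The sign changes were in values that the main test did not call. SLC30A1 with AMI-1 was -0.0123 with a GC offset and -0.0157 with both offsets. The other sign changes came from leaving out 1 library, which gave -0.0318 to 0.139 for SLC30A1 with AMI-1 (negative without AMI-1 3), -0.0162 to 0.0684 for MTF1 with AMI-1 (negative without control 1 or AMI-1 1), -0.242 to 0.112 for MT1F with AMI-1 (positive without control 3 or AMI-1 2), -0.0421 to 0.313 for MT1F with AMI-5 (negative without control 1) and -0.00151 to 0.0842 for MTF1 between the compounds (negative without AMI-1 2). DESeq2 gave no adjusted p for MT1F and MT1L, nor for MT1X with AMI-5. The causes were not tested. Depth limits MT1F and MT1L most.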
